A study of Mus musculus with 16 samples.

Results

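The AP-1 and EGR immediate early genes were followed in cultured mouse bone marrow cells as a set of 10 genes listed by name out of the 32285 genes in the files. The set holds the FOS genes Fos, Fosb, Fosl1 and Fosl2, the JUN genes Jun, Junb and Jund, and the early growth response genes Egr1, Egr2 and Egr3. FOS and JUN proteins pair with each other to form AP-1, a transcription factor that binds the letters TGANTCA, and the EGR proteins are zinc finger factors that bind GC-rich sites. Most of these genes are transcribed within minutes of a growth factor, a cytokine, adhesion or mechanical stress, through factors that are already in the nucleus, such as SRF with its TCF partners and CREB, and their RNAs are short-lived. For the same reason they are known to respond to enzymatic cell detachment and sorting. In bone, Fos is needed for osteoclast formation, and Fosl1, Fosl2 and the JUN genes act in osteoblasts, while Egr1 and Egr2 respond to CSF1 in macrophages.

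The cells were bone marrow stromal cell cultures of 12-week-old male C57BL/6J littermates. They were grown for 21 days with 10% fetal bovine serum, ascorbic acid (50 μg/ml) and β-glycerophosphate (10 mM). They were then detached with trypsin, sorted for live cells and profiled with a 10x Genomics 3′ kit. All 4 groups carried floxed alleles of Fgf23, the gene of the phosphate-regulating hormone FGF23 (Fgf23 fl/fl). The WT group was Dmp1+/+ Fgf23 fl/fl without Cre, Fgf23cKO was Dmp1+/+ Fgf23 fl/fl with Dmp1-cre, Dmp1KO was Dmp1-/- Fgf23 fl/fl without Cre, and Dmp1KO/Fgf23cKO was Dmp1-/- Fgf23 fl/fl with Dmp1-cre. Dmp1 encodes a matrix protein of osteocytes. Its deletion is global, whereas the Dmp1 promoter drives Cre in mature osteoblasts and osteocytes. The comparisons addressed whether the genes differed between genotypes, and whether a difference was shared by the myeloid and stromal cells of the same cultures. Each culture was tagged and sorted, and the suspensions of a genotype were then pooled into 1 droplet reaction, so genotype and reaction (with its library) cannot be told apart in any comparison below.

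The files held 17793 cells of 15 samples. They comprised 3 tagged cultures each of WT, Fgf23cKO and Dmp1KO/Fgf23cKO, 2 of Dmp1KO (replicates 2 and 3; replicate 1 was not analysed here), and 1 sample of untagged cells per genotype, which served as a description and not as a replicate. Marrow was taken from 3 mice of each genotype. Which mouse a tagged culture came from was not given in the sources used here, and p-values measure the spread between cultures of 1 reaction. Among 20 clusters, 6 were taken as myeloid (clusters 0, 1, 2, 3, 6 and 19) and 4 as stromal, namely a contractile osteoprogenitor-like, a pre-osteoblast-like and a pair of osteoblast/osteocyte-like clusters. The tagged cultures gave 8670 myeloid and 895 stromal cells, and the UMIs (counted RNA molecules) of each culture and lineage were summed. The median depth of a myeloid cell differed between the reactions. Taken per tagged culture, its median over the cultures was 7208 UMIs in WT, 35011 in Fgf23cKO, 21399 in Dmp1KO and 35709 in Dmp1KO/Fgf23cKO. Of the 17793 cell barcodes, 0 were shared by libraries of the same genotype and 70 by libraries of different genotypes. Levels are given as CPM, the summed UMIs of a gene scaled to a common library total, and in such sums another mixture of cells and another level within cells cannot be told apart. The 12 myeloid marker genes summed to 34487 to 36798 CPM in the myeloid sums of WT and 26980.3 to 28248 CPM in those of Dmp1KO, and the 12 stromal markers to 50961 to 74003 CPM in the stromal sums of WT and 20374 to 24014 CPM in those of Dmp1KO. In stromal sums, the macrophage gene Lyz2 stood at 7.01% to 12.04% of its myeloid level in WT, 6.54% to 14.6% in Fgf23cKO, 9.82% to 17.9% in Dmp1KO and 6.44% to 7.67% in Dmp1KO/Fgf23cKO. Dmp1 itself had 2603 UMIs in WT, 2171 in Fgf23cKO, 3 in Dmp1KO and 149 in Dmp1KO/Fgf23cKO stromal cells, the last 9.80 CPM against 553 CPM in WT. Fgf23 had 0 or 1 UMI in the stromal cells of each genotype and, since the floxed exon is the first and the tags lie at the 3′ end, could not check the deletion.

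In the myeloid cells of Dmp1KO cultures, Egr1 was 4.32-fold lower than in WT, Fosl2 2.03-fold, Fosb 1.93-fold, Fos 1.79-fold and Junb 1.22-fold lower, while Jund was 2.47-fold higher (edgeR's quasi-likelihood test, Benjamini-Hochberg adjusted p under 0.1, n = 2 and 3). Jun, Egr2 and Egr3 did not pass, and Fosl1 was left out by the filter on low counts. These 6 calls among the 9 members tested stand against a background of 69.8% of all 13262 genes called in this comparison (33.4% lower and 36.4% higher), so the share of members called was near that of all genes. The median log2 fold change over the 9 members was -0.29, against 0.01 over all genes.

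Egr1, a zinc finger factor induced through ERK and SRF, stood at 149, 168 and 159.7 CPM in the 3 WT cultures and at 18.7 and 44.7 CPM in the 2 Dmp1KO cultures (log2 fold change ± SE -2.11 ± 0.25, adjusted p = 3.0e-06). The groups did not overlap, as was so for 77.7% of all genes, and the Dmp1KO cultures differed from each other more than any WT pair. The untagged cells were on the same side, with 159 CPM in WT and 23.2 CPM in Dmp1KO. With every cell thinned to 1300 UMIs, 16.8% ± 0.423 (SD, n = 3) of WT and 4.67% ± 2.52 (SD, n = 2) of Dmp1KO myeloid cells had an Egr1 UMI, and at full depth 48.2% ± 3.17 and 18.9% ± 6.74. No cell type in these cultures is known to lack Egr1, so no background share could be set beside these shares.

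Fos (chr12:85473890-85477273 in GRCm38), the partner of JUN proteins in classical AP-1, stood at 416, 341 and 329 CPM in WT and at 168 and 173 CPM in Dmp1KO (log2 fold change -0.84 ± 0.09, adjusted p = 1.0e-06). Fosb (chr7:19302696-19310051) stood at 72.9, 50.4 and 48.6 CPM and 23.9 and 25.2 CPM (-0.95 ± 0.16, adjusted p = 8.7e-05). Fosl2 (chr5:32135801-32157842), which encodes FRA-2, stood at 43.2, 35.8 and 38.7 CPM and 13.4 and 19.2 CPM (-1.02 ± 0.13, adjusted p = 8.2e-06). For these 3 FOS genes every Dmp1KO culture lay below every WT culture, where 77.7% of all genes had no overlap in either direction. Fosl1, which encodes FRA-1, had 0 UMIs in WT replicate 1, which allows up to 0.533 CPM (counting error only), and the other tagged myeloid sums held 0.191 to 0.459 CPM.

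The JUN genes did not move together. Jund (chr8:70698949-70700616, a gene of 1 exon), which encodes the JUN protein that is least dependent on stimulation, stood at 177, 155 and 164 CPM in WT and 356 and 333 CPM in Dmp1KO (1.30 ± 0.09, adjusted p = 2.3e-08). Junb stood at 310.3, 295 and 289 CPM and 203 and 210.4 CPM (-0.29 ± 0.07, adjusted p = 0.0013). Jun stood at 320.1, 281 and 289.7 CPM in WT and 271 and 262 CPM in Dmp1KO, where the cultures did not overlap by CPM, but its fitted log2 fold change was 0.09 ± 0.08, adjusted p = 0.36. The sign of Jun turned because TMM scaling moved the median gene of this comparison by 0.200 on the log2 scale relative to plain CPM. The 6 members that passed had the same sign on both scales. They also kept it with every cell thinned to 1300 UMIs, where Egr1 was at -1.50 ± 0.16, adjusted p = 1.9e-10, Fos at -0.72 ± 0.11, adjusted p = 1.6e-07 and Jund at 1.18 ± 0.10, adjusted p = 5.4e-14. Clusters 4 and 10, myeloid by their summed markers but with Ighm and Lpl among their leading genes, were left out and held 27.0% of all tagged Dmp1KO cells against 0.888% to 3.04% in the other genotypes. With them included, Egr1 was at -2.24 ± 0.20, adjusted p = 2.2e-07, Fos at -0.73 ± 0.08, adjusted p = 1.6e-06 and Jund at 1.08 ± 0.09, adjusted p = 6.2e-08. Egr2 (73.6, 68.7 and 64.3 CPM in WT, 52.3 and 58.9 CPM in Dmp1KO; -0.07 ± 0.13, adjusted p = 0.68) and Egr3 (27.2, 26.7 and 25.6 CPM and 13.7 and 28.3 CPM; -0.11 ± 0.23, adjusted p = 0.68) did not pass. Egr3 was at 0.45 ± 0.20, adjusted p = 0.062 in thinned cells and at -0.44 ± 0.22, adjusted p = 0.095 with clusters 4 and 10, so its direction depended on these choices.

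**Figure D1:**
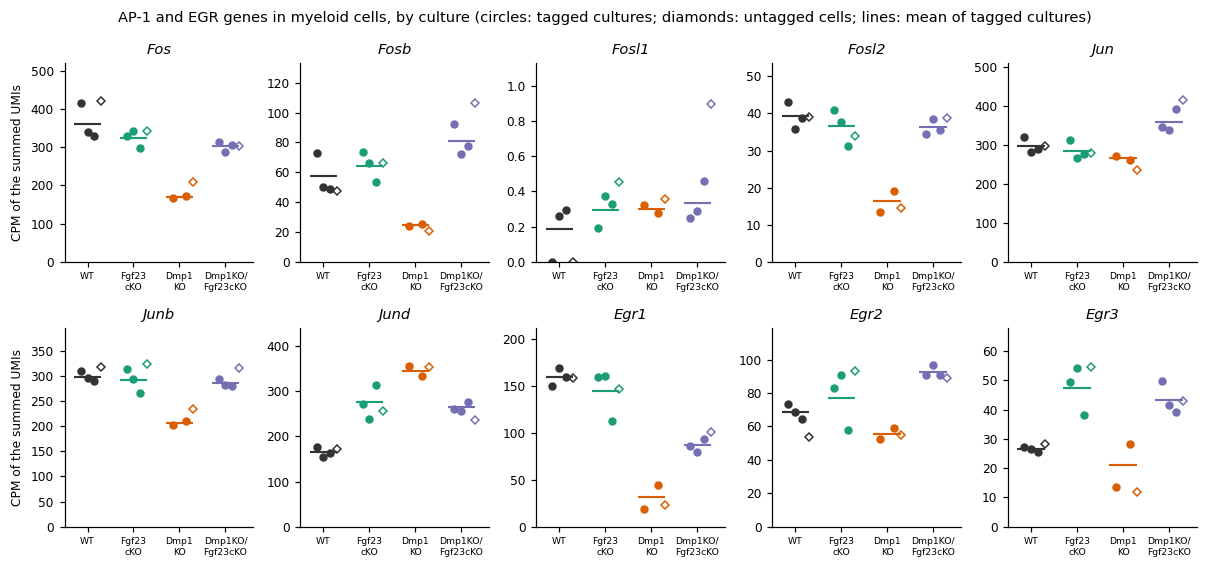
CPM of the summed UMIs (y axis, linear from 0) of the 10 genes in myeloid cells by genotype (x axis), with a filled circle for each tagged culture, an open diamond for the untagged cells and a line at the mean of the tagged cultures. The 2 Dmp1KO cultures lie below all other tagged cultures for Fos, Fosb, Fosl2, Junb and Egr1 and above them for Jund, and Fosl1 stays under 1 CPM.

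In the myeloid cells of Fgf23cKO cultures, Jund was 1.64-fold and Egr3 1.76-fold higher than in WT, Fos was 1.13-fold lower, and the other 6 members tested did not pass. The 3 calls stand against 48.3% of all genes. Jund stood at 272, 239 and 313 CPM (0.72 ± 0.09, adjusted p = 1.9e-05) and Egr3 at 49.4, 54.3 and 37.99 CPM (0.81 ± 0.21, adjusted p = 0.0069), each above all WT cultures, as 25.8% of all genes were. Fos, at 329.6, 342 and 298 CPM, overlapped the WT cultures (-0.18 ± 0.08, adjusted p = 0.081), and without WT replicate 1 it no longer passed (-0.09 ± 0.07, adjusted p = 0.35). Egr1 stood at 159, 161 and 113 CPM (-0.17 ± 0.20, adjusted p = 0.54).

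In Dmp1KO/Fgf23cKO myeloid cells, 7 of 9 members passed against WT, beside 53.9% of all genes. Egr1 was 1.92-fold lower, at 85.7, 80.03 and 93.8 CPM (-0.94 ± 0.21, adjusted p = 0.0017), and Fos 1.24-fold lower, at 315, 287 and 305 CPM (-0.31 ± 0.08, adjusted p = 0.0044). The 5 higher members were Jund at 261, 256 and 276 CPM (0.63 ± 0.09, adjusted p = 3.9e-05), Egr3 at 49.6, 41.5 and 38.99 CPM (0.67 ± 0.20, adjusted p = 0.016), Fosb at 92.7, 72.5 and 77.9 CPM (0.48 ± 0.14, adjusted p = 0.0094), Egr2 at 90.98, 96.8 and 90.9 CPM (0.38 ± 0.12, adjusted p = 0.016) and Jun at 346, 338 and 391 CPM (0.22 ± 0.07, adjusted p = 0.024). Of these, Fosb overlapped WT, whose replicate 1 was at 72.9 CPM, and the other 4 did not, as was so for 59.2% of all genes. Fosl2 and Junb did not pass (-0.16 ± 0.12, adjusted p = 0.29, and -0.11 ± 0.06, adjusted p = 0.13).

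Set directly against Dmp1KO, the Dmp1KO/Fgf23cKO myeloid cells had Fosb 2.70-fold, Egr1 2.25-fold, Fosl2 1.83-fold, Egr3 1.71-fold, Fos 1.45-fold, Egr2 1.36-fold and Junb 1.13-fold higher and Jund 1.60-fold lower. These 8 of 9 calls stand against 68.1% of all genes. The log2 fold changes ran from -0.68 ± 0.09 for Jund (adjusted p = 1.5e-05) to 1.43 ± 0.15 for Fosb (adjusted p = 1.2e-06), and their median over the members was 0.53 against -0.06 over all genes. Jun did not pass (0.13 ± 0.08, adjusted p = 0.17). No overlap between these comparisons is counted, since the first 3 share the WT cultures and the last shares its cultures with the others. Between plain CPM and TMM the median gene of this comparison moved by 0.250 on the log2 scale, and no member changed sign.

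RefSeq start regions (GRCm38.p6, 250 bases before to 50 after each start) were given for 7 of the 10 genes. No window was given for Fosl1, Egr1 and Egr3, 5 were given for Egr2 and 1 for each other gene. Among these 7 genes, only the windows of Egr2, a factor of macrophage and osteoclast precursor differentiation, held a CArG box, the site of SRF. Boxes outside these windows were not sought. Among all 32851 windows 1.63% held a CArG box on either strand. Both boxes found are shown because SRF is the textbook inducer of immediate early genes. The capitals mark the box, the runs are 30 bases of the plus strand, and they lie at chr10:67537484-67537513 and chr10:67537787-67537816.
Egr2 upstream box: cggatcttctCCTTTTTTGGaaagtctcgg
Egr2 downstream box: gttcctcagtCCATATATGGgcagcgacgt
A match is a description of the letters and not of SRF binding. The windows of Fos and Junb held the TATA letters TATAAA, which 13.6% of all windows held. The AP-1 letters TGACTCA or TGAGTCA (in 5.2% of all windows), the cyclic AMP response element (TGAC followed by GTCA, 1.79%) and an EGR site (GCGT followed by GGGCG, 0.612%), each sought on both strands, were not in the members' windows.

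In the stromal cells of Dmp1KO cultures, Egr1 was 2.10-fold, Fos 1.83-fold and Fosl2 1.51-fold lower than in WT, 0 members passed as higher, and 7 of 10 did not pass. The 3 calls stand against 24.6% of all 12442 genes tested (13.6% lower), and the median over the 10 members was -0.46 against -0.04 over all genes.

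Fos stood at 209, 169 and 159 CPM in WT stromal cells and 108 and 102 CPM in Dmp1KO (-0.87 ± 0.26, adjusted p = 0.038), and Fosl2 at 67.5, 49.7 and 50.4 CPM and 39.3 and 40.4 CPM (-0.59 ± 0.16, adjusted p = 0.025). Egr1 stood at 176, 147 and 114 CPM and 95.7 and 54.01 CPM (-1.07 ± 0.37, adjusted p = 0.069). In each of the 3 the Dmp1KO cultures lay below all WT cultures, which was so for 19.2% of all genes. Without Dmp1KO replicate 3, which left 1 Dmp1KO culture assumed to vary like the others, none of the 3 passed, with Egr1 at -0.71 ± 0.45, adjusted p = 0.37. Without Dmp1KO replicate 2, Fos (-0.88 ± 0.35, adjusted p = 0.16) and Fosl2 (-0.54 ± 0.21, adjusted p = 0.15) no longer passed, and without WT replicate 1 or 2 Egr1 did not (-0.95 ± 0.42, adjusted p = 0.16, and -1.06 ± 0.42, adjusted p = 0.13). The stromal cells of the genotypes were not the same mixture: osteoblast/osteocyte-like cells numbered 114 of 290 in WT and 10 of 193 in Dmp1KO. Within the pre-osteoblast-like cells alone, Fos was at -0.76 ± 0.31, adjusted p = 0.16, Fosl2 at -0.39 ± 0.21, adjusted p = 0.3 and Egr1 at -1.37 ± 0.42, adjusted p = 0.073. The contractile cells held far fewer UMIs, with Fos at 72.4, 190.1 and 169 CPM in WT, 44.4, 40.1 and 21.2 CPM in Fgf23cKO, 95.6 and 42.4 CPM in Dmp1KO and 8.63, 11.02 and 3.56 CPM in Dmp1KO/Fgf23cKO (3, 4 and 1 UMIs), where each culture's sum had 63118 to 363126 UMIs. Over tagged and untagged contractile cells, the myeloid markers summed to 6392 CPM and the stromal markers to 7151 CPM, so much of their marker RNA was myeloid.

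Fosl1 and Fosl2 were the members that passed in Fgf23cKO stromal cells. Fosl1 was 1.88-fold higher than in WT (16.2, 5.52 and 11.8 CPM in WT, 15.7, 26.9 and 27.7 CPM in Fgf23cKO; 0.91 ± 0.31, adjusted p = 0.091), and the groups overlapped. It passed in 4 of the 11 fits that left out 1 culture, and was at 0.69 ± 0.30, adjusted p = 0.21 without WT replicate 2. Fosl2 was 1.43-fold lower, at 39.2, 37.8 and 45.6 CPM, below all WT cultures as were 11.4% of all genes (-0.52 ± 0.14, adjusted p = 0.043), and did not pass without WT replicate 1 (-0.40 ± 0.15, adjusted p = 0.14). The 2 calls stand against 15.6% of all genes.

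In Dmp1KO/Fgf23cKO stromal cells 0 of 10 members passed against WT by edgeR and by DESeq2 (unadjusted p under 0.05 for 2 members), beside 20.4% of all genes. Egr1 was at 74.2, 83.8 and 116 CPM (-0.74 ± 0.32, adjusted p = 0.15) and Fos at 122, 140.5 and 193 CPM (-0.32 ± 0.22, adjusted p = 0.39). Against Dmp1KO, Fosl2 was 1.55-fold higher, at 54.3, 57.4 and 71.01 CPM (0.63 ± 0.15, adjusted p = 0.035), and the other 9 did not pass, beside 10.7% of all genes. Fosl2 did not pass when either Dmp1KO culture was left out (0.60 ± 0.20, adjusted p = 0.23, and 0.68 ± 0.21, adjusted p = 0.17). Jund, higher in the myeloid cells of every mutant, stood at 281, 216 and 244 CPM in WT, 272, 268 and 267 CPM in Fgf23cKO, 286 and 260.1 CPM in Dmp1KO and 282, 326 and 326 CPM in Dmp1KO/Fgf23cKO stromal cells, with log2 fold changes against WT of 0.07 ± 0.11, 0.03 ± 0.12 and 0.25 ± 0.11, none of which passed.

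**Figure D2:**
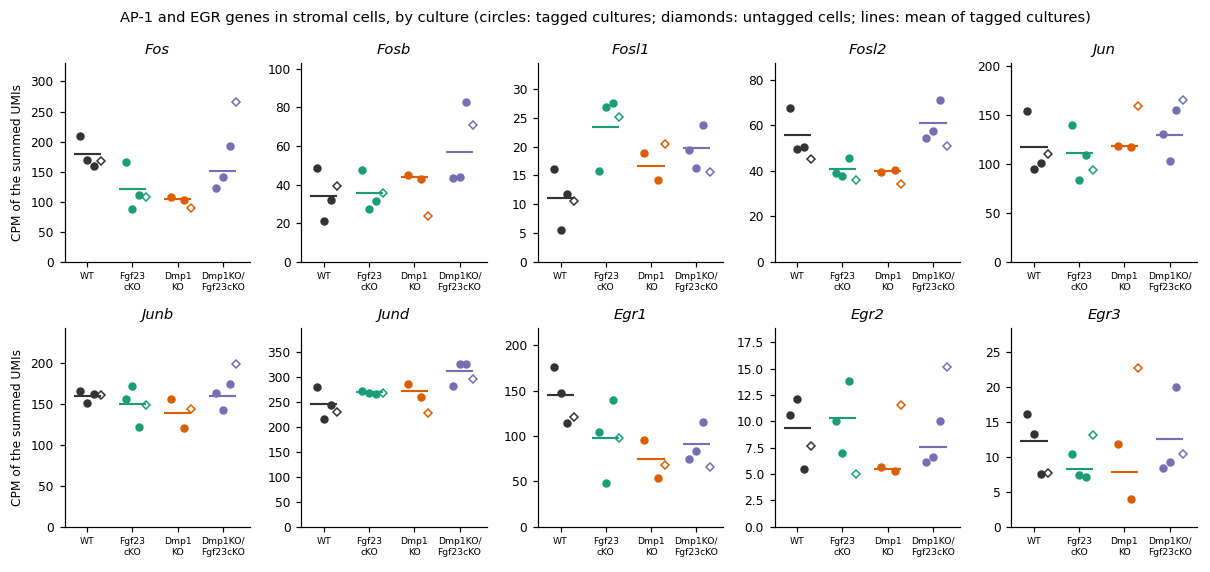
CPM of the summed UMIs (y axis, linear from 0) of the 10 genes in stromal cells by genotype (x axis), with a filled circle for each tagged culture, an open diamond for the untagged cells and a line at the mean of the tagged cultures. Both Dmp1KO cultures lie below the 3 WT cultures for Fos, Fosl2 and Egr1, and Dmp1KO and WT overlap for the other 7 genes.

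Whether a difference was shared by the lineages was tested in 1 fit over both sums of each culture, as the myeloid minus the stromal log2 fold change. In Dmp1KO against WT, Fosb and Jund differed between the lineages. The Fosb difference was -1.27 ± 0.32, adjusted p = 0.017 (lower in myeloid cells, where stromal cells had 48.6, 20.97 and 31.9 CPM in WT and 45.01 and 43.1 CPM in Dmp1KO), and the Jund difference was 1.21 ± 0.16, adjusted p = 2.2e-04. These 2 of 10 calls stand against 17.4% of all 14663 genes tested. Fos had a difference of -0.02 ± 0.25, adjusted p = 0.99 and Junb one of 0.00 ± 0.16, so neither was shown to differ between the lineages. For Fosl2 it was -0.50 ± 0.20, adjusted p = 0.13, and for Egr1 -1.16 ± 0.50, adjusted p = 0.16. Egr1 passed when Dmp1KO replicate 3 was left out (-2.16 ± 0.50, adjusted p = 0.014), and also without Fgf23cKO replicate 2 or 3. Fosb did not pass without Dmp1KO replicate 2 (-1.25 ± 0.41, adjusted p = 0.11). Neither call held with contractile cells alone as stromal and cycling and osteoclast-like cells added to the myeloid ones (Fosb -0.59 ± 0.87, adjusted p = 0.95; Jund 0.11 ± 0.49, adjusted p = 1), and Fosb did not pass in thinned cells (-1.03 ± 0.86, adjusted p = 0.78). The contractile cells carried almost as much myeloid as stromal marker RNA, as given above, which limits their use as the stromal side.

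In Dmp1KO/Fgf23cKO against Dmp1KO the same test called Fosb (1.08 ± 0.28, adjusted p = 0.016) and Jund (-0.91 ± 0.16, adjusted p = 0.0012), 2 of 10 members beside 23.0% of all genes. Neither passed in thinned cells (Fosb 1.25 ± 0.88, adjusted p = 0.65; Jund -0.35 ± 0.36, adjusted p = 0.8) or with cluster 6 as the myeloid cells (Fosb 0.28 ± 0.38, adjusted p = 0.83; Jund -0.038 ± 0.16, adjusted p = 0.97). Fos had a difference of -0.02 ± 0.24, adjusted p = 0.99 and Egr1 of 0.91 ± 0.49, adjusted p = 0.23. In Fgf23cKO and in Dmp1KO/Fgf23cKO against WT, 0 of 10 members passed (unadjusted p under 0.05 for 2 and 0), beside 1.24% and 2.82% of all genes. DESeq2 was not run for this test. Jund in Fgf23cKO had a difference of 0.56 ± 0.15, adjusted p = 0.11. The stromal sums held myeloid RNA, measured by Lyz2 above. With the counts of the other lineage subtracted in the proportion of its markers, the count of members that differed between lineages was again 2 in each of the comparisons of Dmp1KO.

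**Figure D3:**
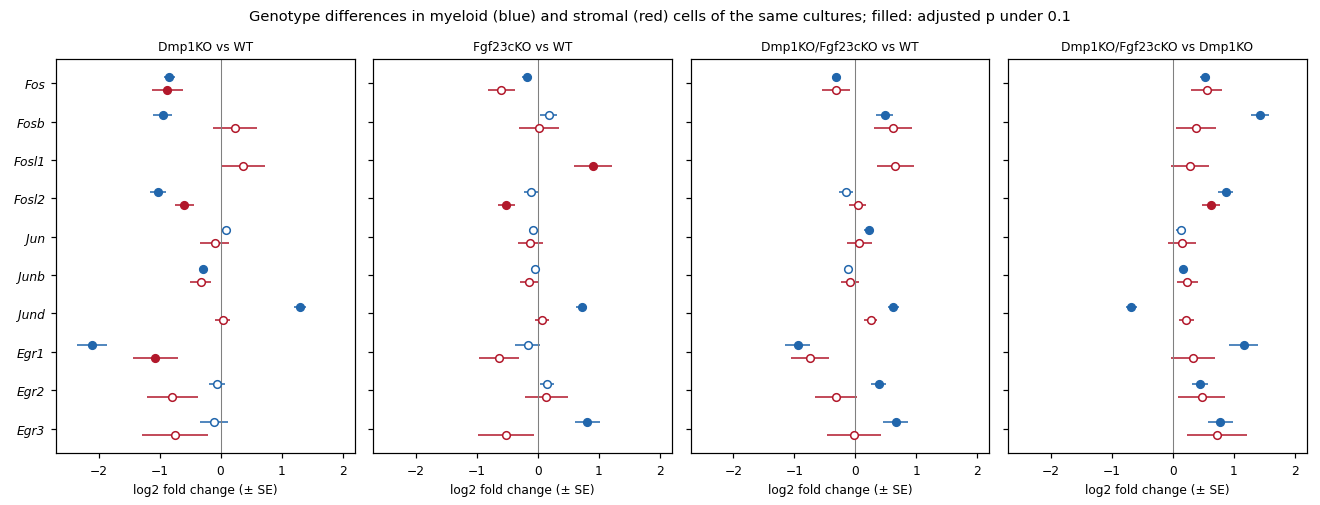
Log2 fold changes (x axis, ± SE) of the 10 genes (y axis) in the 4 genotype comparisons, in myeloid cells (blue) and stromal cells (red) of the same cultures, with filled symbols where the adjusted p was under 0.1. In Dmp1KO against WT the Fos symbols of the lineages lie side by side, at -0.84 and -0.87, while those of Fosb and Jund lie apart.

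The myeloid cells of the genotypes fell largely into different clusters, and the members' levels differed between those clusters. Cluster 0 held 84.3% of WT myeloid cells, cluster 1 held 56.1% of Fgf23cKO and 80.4% of Dmp1KO/Fgf23cKO myeloid cells, and Dmp1KO myeloid cells lay in clusters 2 (38.8%), 3 (31.5%) and 1 (25.7%). Over the tagged cells of all genotypes, Egr1 was at 180.3 CPM in cluster 0 and 138 CPM in cluster 1, against 2.17 CPM in cluster 2 and 6.46 CPM in cluster 3. Egr3, a leading gene of cluster 1, was at 28.7, 69.9, 1.13 and 1.10 CPM in the same order, and Fos at 367, 298, 125 and 214 CPM. Jund was higher in clusters 2 and 3, with 142, 206, 358 and 428 CPM. The clusters were formed from the same cells' RNA, and these genes were not kept out when the 3000 variable genes were chosen. Which of the members were chosen was not checked, so these levels are a description and carry no test. Clusters 2 and 3, led by Itgax, Mmp12 and Dcstamp and by Fbxo32, Ddit3 and Atp6v0d2, each have 1 osteoclast gene and no macrophage marker among their 10 leading genes. The lack of a listed macrophage marker there is not particular to them. Clusters 1, 6 and 19 had none either, and cluster 0 had Marco.

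The Dmp1KO cells of cluster 1 had Egr1 at 137 and 173 CPM in replicates 2 and 3, and Egr3 at 109 and 119 CPM. In the same cluster Fgf23cKO cultures had Egr1 at 226, 202 and 206 CPM and Egr3 at 76.4, 73.8 and 81.97 CPM, and Dmp1KO/Fgf23cKO cultures had 103, 93.7 and 113 CPM and 60.96, 51.2 and 50.4 CPM. Cluster 1 held 461 of 1395 myeloid cells of Dmp1KO replicate 3 and 269 of 1451 of replicate 2. Since the cluster was formed with Egr3 and Egr1 among the genes that could enter, these levels are a description, and the part of the mixture of clusters in the Egr1 level of Dmp1KO was not tested. Fos in cluster 1 was at 228 and 238 CPM in Dmp1KO and 304, 289.7 and 295 CPM in Dmp1KO/Fgf23cKO, and Fosb at 51.9 and 55.1 CPM and 99.7, 78.7 and 87.6 CPM. In the same order, Fosl2 was at 46.1 and 45.5 CPM and 34.0, 39.5 and 35.5 CPM, and Egr2 at 134 and 129 CPM and 104, 112 and 104 CPM. Jund was at 171 and 184 CPM and 220, 217 and 234 CPM, and Junb overlapped, at 313 and 290 CPM and 299, 291 and 288 CPM. Fos and Fosb thus lay on the side of their fit over all myeloid cells, whereas Egr1, Egr3, Fosl2, Egr2 and Jund lay on the other side. WT had 10, 16 and 20 cells in this cluster.

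Cluster 6, led by Slc7a11, Dkk2 and Procr, was the only myeloid cluster with at least 100 cells of every genotype, and a fit within it was added after seeing the data. Like the others, this cluster was formed with these genes among those that could enter. Values and p-values within cluster 6 are therefore a description of cells that may have been chosen partly by that RNA. There, Dmp1KO against WT gave Fos 0.21 ± 0.14, adjusted p = 0.33 (261, 283 and 289 CPM in WT, 391 and 301 CPM in Dmp1KO), Fosb 0.49 ± 0.32, adjusted p = 0.33, Fosl2 -0.12 ± 0.20, adjusted p = 0.74 and Egr1 -0.50 ± 0.26, adjusted p = 0.19 (34.5, 59.8 and 51.02 CPM, 29.5 and 48.02 CPM). None of the 4 passed, and Fos and Fosb had the opposite sign to the fit over all myeloid cells. Jund was higher (0.39 ± 0.09, adjusted p = 0.004), Jun was higher (0.48 ± 0.14, adjusted p = 0.018) and Junb lower (-0.33 ± 0.11, adjusted p = 0.052), 3 of 9 members beside 23.2% of 9903 genes.

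In Fgf23cKO cluster 6 cells, Fos (352, 365 and 386 CPM; 0.33 ± 0.11, adjusted p = 0.034), Fosb (0.78 ± 0.24, adjusted p = 0.019) and Jund (0.35 ± 0.08, adjusted p = 0.0016) were higher than in WT, beside 32.3% of genes called. In Dmp1KO/Fgf23cKO cluster 6 cells, Egr1 (28.1, 32.5 and 42.8 CPM; -0.68 ± 0.19, adjusted p = 0.0099) and Junb (-0.29 ± 0.09, adjusted p = 0.022) were lower, and Fosb (0.89 ± 0.24, adjusted p = 0.007), Jun (0.60 ± 0.12, adjusted p = 4.2e-04), Jund (0.44 ± 0.08, adjusted p = 1.2e-04) and Fos (0.27 ± 0.11, adjusted p = 0.076) higher, beside 37.7%. Against Dmp1KO, 0 of 9 members passed (unadjusted p under 0.05 for 0, DESeq2 not run within the cluster), beside 8.27%. Jund passed against WT in each mutant with the same sign, over all myeloid cells and within cluster 6. In cluster 1, where no fit was run, Jund was at 234, 173 and 157 CPM in WT (22, 29 and 27 UMIs). There the Fgf23cKO cultures (194, 188 and 164 CPM) and Dmp1KO cultures (171 and 184 CPM) lay within the WT range. Dmp1KO/Fgf23cKO cultures were at 220, 217 and 234 CPM. In cluster 3 the mutant cultures, at 376 to 475 CPM, lay above the WT cultures, at 258 and 221 CPM (26 and 21 UMIs). With cluster 6 as the myeloid cells, the myeloid minus stromal difference of Fos in Dmp1KO against WT was 1.01 ± 0.30, adjusted p = 0.088, that of Fosb 0.0014 ± 0.44, adjusted p = 1 and that of Jund 0.29 ± 0.16, adjusted p = 0.46, where 4.34% of all genes were called. The cells of this cluster are 101 in Dmp1KO and 447 in WT tagged cultures.

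**Figure D4:**
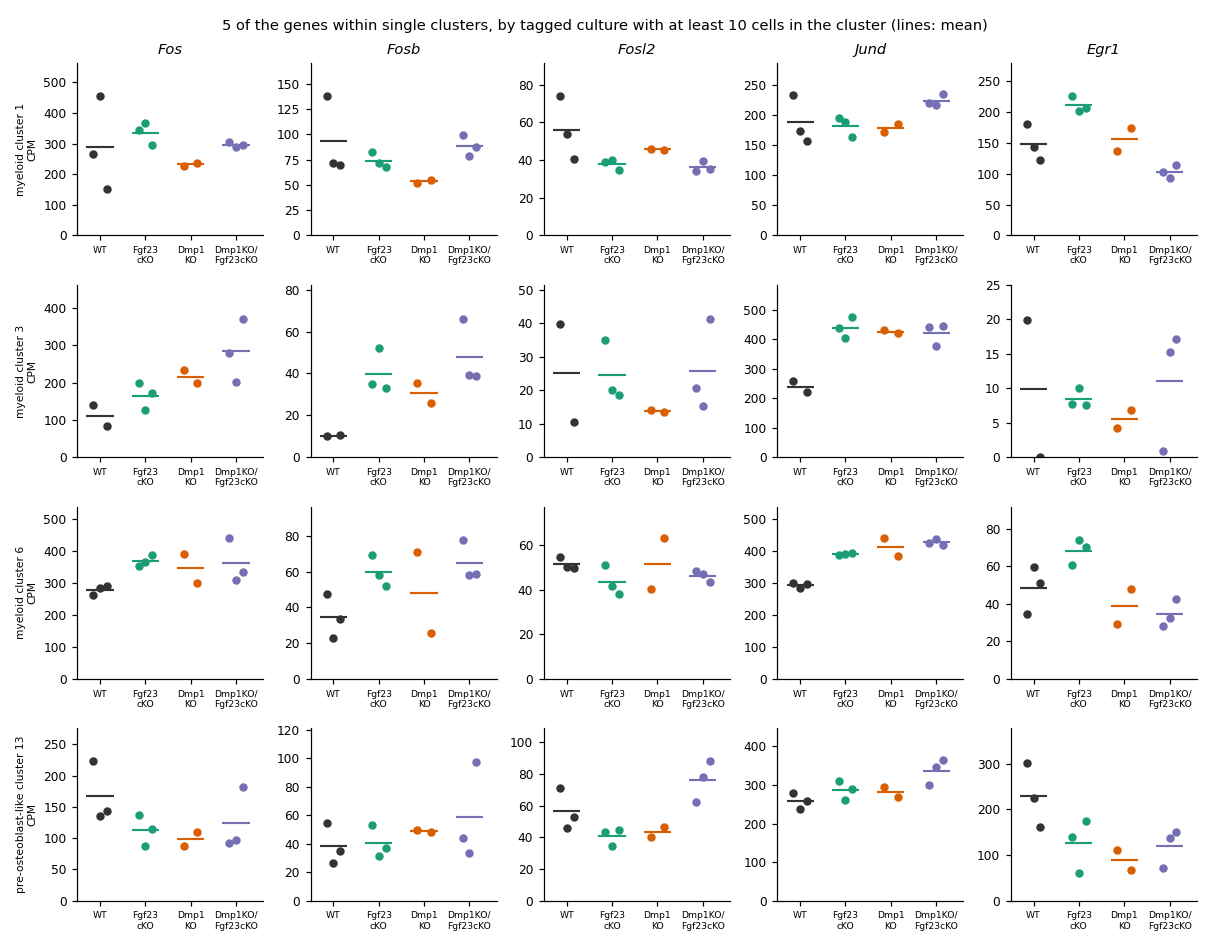
CPM (y axis, linear from 0) of Fos, Fosb, Fosl2, Jund and Egr1 within myeloid clusters 1, 3 and 6 and the pre-osteoblast-like cluster 13 by genotype (x axis), with a circle for each tagged culture with at least 10 cells in the cluster and a line at their mean. In cluster 6 the Fos level of the Dmp1KO cultures is not below that of WT, and Jund is above WT in every mutant culture.

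Other classes held some members at higher levels. Fosl2 reached 162 CPM in the osteoclast-like cluster 15, led by Mmp9, Acp5 and Ctsk, and Fos reached 533 CPM there, while Egr1 was at 40.1 CPM. Both were higher there than in any other cluster. Fosl1 reached 27.8 CPM in pre-osteoblast-like cells, against 4.07 and 1.28 CPM in the osteoblast/osteocyte-like clusters and 1.92 CPM in contractile cells. Contractile cells had Fos at 44.2 CPM, Jun at 44.2 CPM and Egr1 at 25.4 CPM, with a median of 2825.5 UMIs a cell. Of the 299 osteoclast-like cells, tagged and untagged, 233 were WT, so the genotypes were not compared there. Fos in the pre-osteoblast-like cells was at 223, 136 and 144 CPM in WT, 137, 87.2 and 115 CPM in Fgf23cKO, 87.4 and 109 CPM in Dmp1KO and 92.6, 96.9 and 181 CPM in Dmp1KO/Fgf23cKO, and Egr1 at 302, 226 and 161, then 141, 61.2 and 176, then 110.3 and 67.3, and 72.5, 138 and 150.4 CPM.

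**Figure D5:**
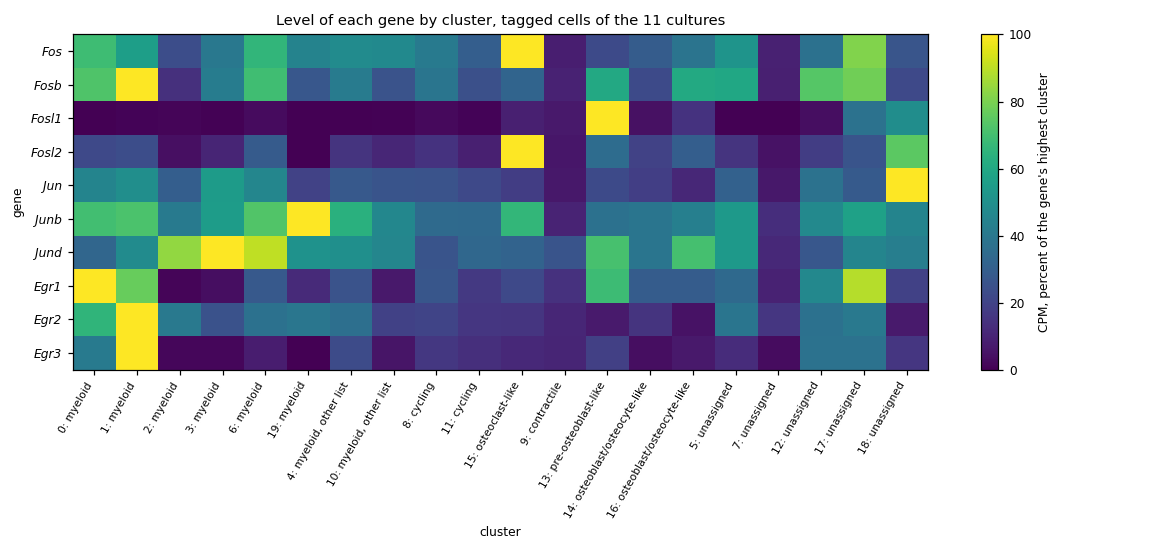
Level of each gene (rows) in each of the 20 clusters (columns, grouped by class) over the tagged cells of the 11 cultures, as a percentage of the CPM in the gene's own highest cluster. Egr1 and Egr3 are near the lowest colour in myeloid clusters 2 and 3, where Jund is near its highest, and Fosl1 is highest in the pre-osteoblast-like cluster 13.

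Other immediate early genes, 35 in all, split in the myeloid cells of Dmp1KO. Against WT, 13 of 35 rose and 13 fell (74.3% called, beside 69.8% of all genes), with a median log2 fold change of -0.03 against 0.01 over all genes. Atf3, a stress-induced AP-1 partner, rose by 1.36 ± 0.08 on the log2 scale and Gadd45b, a stress-response gene, by 2.06 ± 0.14, whereas Btg1, an antiproliferative gene, changed by -1.05 ± 0.06 and Id3 by -1.32 ± 0.09 (adjusted p from 2.7e-09 to 1.8e-08). In Fgf23cKO 15 of 35 rose and 4 fell, in Dmp1KO/Fgf23cKO 20 of 35 rose and 9 fell, and in Dmp1KO/Fgf23cKO against Dmp1KO 18 of 35 rose and 9 fell, or 54.3%, 82.9% and 77.1% called beside 48.3%, 53.9% and 68.1% of all genes. In Dmp1KO stromal cells 3 of 33 rose and 6 fell (27.3% called, beside 24.6% of all genes), with Btg1 at -1.87 ± 0.16 (adjusted p = 1.6e-04), Rhob at -0.98 ± 0.17 (0.0032), Nfkbia, an NF-kB inhibitor, at 0.97 ± 0.18 (0.0039) and Gadd45b at 0.90 ± 0.17 (0.0055). Btg1 fell in the myeloid and the stromal cells of all 3 mutants against WT, with log2 fold changes of -1.22 ± 0.05 and -1.42 ± 0.14 in Fgf23cKO and -1.22 ± 0.05 and -1.39 ± 0.14 in Dmp1KO/Fgf23cKO. In the test between lineages 13 of 35 differed in Dmp1KO against WT (37.1% called, beside 17.4% of all genes). In Dmp1KO/Fgf23cKO against Dmp1KO 9 of 35 were higher and 9 lower in myeloid cells by this test (51.4% called, beside 23.0% of all genes). In Fgf23cKO and in Dmp1KO/Fgf23cKO against WT 2 of 35 differed (5.71% called in each, beside 1.24% and 2.82% of all genes). The lists of these and the following genes were put together by function, with earlier results of these data known, and all values are log2 fold changes ± SE by the same test.

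Of 12 heat shock genes, chaperones and cochaperones that also respond to handling, 11 were tested in myeloid cells. In Dmp1KO against WT 9 of 11 rose and 0 fell (beside 36.4% of all genes called higher and 33.4% lower, median 0.64 against 0.01). Hsph1 rose by 1.29 ± 0.11 on the log2 scale, Hsp90aa1 by 0.92 ± 0.08, Hsp90ab1 by 0.89 ± 0.06 and Dnaja1 by 0.69 ± 0.07. In Fgf23cKO 7 of 11 rose and 2 fell, in Dmp1KO/Fgf23cKO 4 of 11 rose and 2 fell, and in Dmp1KO/Fgf23cKO against Dmp1KO 1 of 11 rose and 10 fell, or 81.8%, 54.5% and 100% called beside 48.3%, 53.9% and 68.1% of all genes (38.4% lower in the last). In stromal cells of Dmp1KO 3 of 12 rose and 1 fell (4 of 12 called, beside 24.6% of all genes, median 0.27 against -0.04), with Hsp90ab1 at 0.57 ± 0.09, Dnaja1 at 0.50 ± 0.13 and Hspb1 at 1.21 ± 0.34 higher and Dnajb4 at -0.95 ± 0.21 lower (adjusted p = 0.0024, 0.019, 0.031 and 0.012). Hsp90ab1 also passed in Fgf23cKO and Dmp1KO/Fgf23cKO stromal cells (0.41 ± 0.08 and 0.50 ± 0.08). Between the lineages 3 of 12 differed in Dmp1KO against WT (25% called, beside 17.4% of all genes), each with the higher value in myeloid cells. In Dmp1KO/Fgf23cKO against Dmp1KO, 0 of 12 rose and 1 fell in stromal cells (8.33% called, beside 10.7% of all genes). There 8 of 12 differed between the lineages (66.7% called, beside 23.0% of all genes), each with the lower value in myeloid cells. In Fgf23cKO and in Dmp1KO/Fgf23cKO against WT 0 of 12 differed, beside 1.24% and 2.82% of all genes. The part of these heat shock changes in the members' levels was not tested.

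Upstream of the members, the 16 regulators of the SRF, TCF, CREB and MAP kinase route split in Dmp1KO myeloid cells (5 of 16 rose and 6 fell, 68.8% called, beside 69.8% of all genes, with a median log2 fold change of -0.09 against 0.01 over all genes), with Elk3, a TCF, at -0.83 ± 0.10, the ERK target kinase gene Rps6ka1 at -0.66 ± 0.08, Mapk3, which encodes ERK1, at 0.52 ± 0.06 and the SRF cofactor Mrtfa at 0.49 ± 0.06. In Dmp1KO stromal cells 0 of 16 rose and 2 fell (12.5% called, beside 24.6% of all genes), namely Rps6ka1 (-1.70 ± 0.36) and Elk4 (-0.54 ± 0.14). Among 12 genes of negative MAP kinase feedback, of which 11 were tested, 4 of 11 rose and 6 fell in Dmp1KO myeloid cells (90.9% called, beside 69.8% of all genes, median -0.33 against 0.01). Dusp6, an ERK phosphatase that ERK signalling induces, was at -2.33 ± 0.17 (adjusted p = 2.2e-08), Spry2 at -1.08 ± 0.10, Spred1 at -0.77 ± 0.14 and Dusp4 at 0.49 ± 0.10. Dusp6 was lower in Fgf23cKO (-0.68 ± 0.14) and Dmp1KO/Fgf23cKO (-0.97 ± 0.14) myeloid cells too, but the list as a set was not. In Fgf23cKO myeloid cells 5 of 11 rose and 3 fell (72.7% called, beside 48.3% of all genes, median 0.23 against 0.01). In Dmp1KO/Fgf23cKO myeloid cells 5 of 11 rose and 4 fell (81.8% called, beside 53.9% of all genes, median 0.11 against 0.002). In Dmp1KO stromal cells 0 of 12 rose and 2 fell (16.7% called, beside 24.6% of all genes), namely Spry2 (-2.24 ± 0.45) and Dusp8 (-1.64 ± 0.32), and in Dmp1KO/Fgf23cKO against Dmp1KO 5 of 12 rose and 0 fell (41.7% called, beside 10.7% of all genes, 6.11% higher).

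Of the partners that can pair with FOS or JUN or compete with them, 2 of 11 rose and 7 fell in Dmp1KO myeloid cells against WT (81.8% called, beside 69.8% of all genes, median -0.40 against 0.01). Batf3, a dendritic cell factor, was at 2.88 ± 0.16, Maf, a macrophage bZIP factor, at -2.97 ± 0.17, and Jdp2, an AP-1 repressor, at -1.03 ± 0.12. In Dmp1KO stromal cells 0 of 9 rose and 1 fell (Maf, -1.01 ± 0.15; 11.1% called, beside 24.6% of all genes). Of the EGR corepressors, Nab1 was at -0.62 ± 0.08 and Nab2, which EGR proteins induce, at 0.56 ± 0.10 in Dmp1KO myeloid cells, and neither passed in stromal cells (-0.21 ± 0.18 and -0.14 ± 0.20). Among the genes that AP-1 is known to act on, 9 of 16 rose and 7 fell in Dmp1KO myeloid cells (100% called, beside 69.8% of all genes, median 0.43 against 0.01). Spp1, which encodes osteopontin, was at 3.09 ± 0.11, the osteoclast protease gene Ctsk at 2.83 ± 0.25, Plaur at 1.65 ± 0.11 and Cd44 at 0.80 ± 0.07, all higher. In stromal cells 0 of 14 rose and 4 fell (28.6% called, beside 24.6% of all genes), namely Acp5 (-2.65 ± 0.67), Ccl2 (-1.23 ± 0.32), Mmp13, a collagenase of osteoblasts (-0.80 ± 0.26), and Hmox1 (-1.08 ± 0.36). Acp5 is a gene of osteoclasts, and the stromal sums carried myeloid RNA as given above.

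Over the 11 tagged myeloid sums, the genes whose log2(CPM + 1) ran most like Fos among 8100 genes were Acadsb (0.99), Casp8 (0.99), Plekhb2 (0.99), Med23 (0.99) and Itprid2 (0.98), by Pearson's r. Those most like Egr1 were Sod1 (0.98), Ier2 (0.98), Msr1 (0.98), Dmpk (0.98) and Cfp (0.97), where Ier2 is itself an immediate early gene. With Fos, Junb had r = 0.97, Fosl2 0.95, Egr1 0.91, Fosb 0.84, Egr2 0.56, Egr3 0.53, Jun 0.39 and Jund -0.73. The 11 sums share 4 reactions and their depth, and 832 genes had r over 0.9 with Fos. These values are a description of the differences between the reactions.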

How the data were processed

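The authors deposited filtered gene-by-cell matrices of UMI counts per sample, made with Cell Ranger 7.0.1 against mm10. Barcodes were assigned to cultures by the authors' CellPlex tags, and no doublet caller was run here. Cells were clustered with Seurat 5.3.0 and sctransform 0.4.2 (mitochondrial share regressed, 30 components, resolution 0.8, R 4.3.3) and clusters were assigned to lineages by marker lists. UMI counts were added up over the cells of each lineage in a tagged culture (at least 10 cells), filtered with filterByExpr, scaled by TMM and tested with edgeR 4.0.16 (quasi-likelihood, Benjamini-Hochberg over all genes, threshold 0.1). The lineage difference was fitted with the culture as a block. Alternatives included DESeq2 1.42.0. On simulated counts, 99.4% of 200 genes changed 4-fold were recovered among 13262 in myeloid, 90.2% among 12442 in stromal cells, and 68.8% among 14663 for the difference, and 13.7%, 8.52% and 9.73% of the calls were genes simulated without a change, in myeloid cells above the 10% that the threshold aims at. The simulation changed far fewer genes than were called here, by more than most members changed. It drew the lineages of a culture independently, so these rates need not hold for the members. Tagged sums held 5626596 to 37426509 UMIs in myeloid and 905849 to 6649735 in stromal cells, and floors of 3 counts cover counting error only. The members were set by name, with no measured value in the rule, but they and the gene lists were chosen with earlier results of these data known. All 10 members were named, and of each list at most 4 genes, those with the smallest adjusted p in Dmp1KO against WT in that lineage.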

Additional observations from a re-analysis of the deposited data

Results flagged for a closer look

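The change of Fosb and Jund differed between myeloid and stromal cells by a test of the difference itself, though not with every choice of cells. In Dmp1KO against WT, Fosb had a myeloid log2 fold change of -0.95 ± 0.16 and a stromal one of 0.24 ± 0.36, a difference of -1.27 ± 0.32, adjusted p = 0.017 (edgeR's quasi-likelihood test). Jund had 1.30 ± 0.09 and 0.03 ± 0.12, a difference of 1.21 ± 0.16, adjusted p = 2.2e-04. In Dmp1KO/Fgf23cKO against Dmp1KO, Fosb had 1.43 ± 0.15 and 0.38 ± 0.33, a difference of 1.08 ± 0.28, adjusted p = 0.016, and Jund -0.68 ± 0.09 and 0.22 ± 0.12, a difference of -0.91 ± 0.16, adjusted p = 0.0012. These comparisons share the Dmp1KO cultures. In each, 20% of the members were called, beside 17.4% of all genes in the first and 23.0% in the second. The share of members called was thus near that of all genes. With cluster 6 as the myeloid cells, the differences in Dmp1KO against WT were 0.0014 for Fosb and 0.29 for Jund, and those against Dmp1KO were 0.28 and -0.038, none called (adjusted p from 0.46 to 1). With contractile cells alone as stromal and cycling and osteoclast-like cells added to the myeloid ones, Dmp1KO against WT gave -0.59 for Fosb (adjusted p = 0.95) and 0.11 for Jund (adjusted p = 1), and Jund turned to 0.34 against Dmp1KO (adjusted p = 0.81). The contractile cells carried much myeloid marker RNA, as given above. In thinned cells Jund in Dmp1KO against WT was the only 1 of the 4 called.

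A single sample stood apart in 2 of 60 groups of 4 samples (the tagged cultures and the untagged cells of a genotype), where chance gives about 1 in 20. Fosb in myeloid cells was at 72.9 CPM in WT replicate 1 against 47.3 to 50.4 CPM in the other WT samples. Egr3 in stromal cells was at 20.04 CPM in Dmp1KO/Fgf23cKO replicate 3 against 8.48 to 10.4 CPM in the others. Dmp1KO, with 3 samples, was not tested.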

How the results depend on the processing

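Of 2780 values of single members under alternatives, 2616 stayed on their side of the threshold, 66 lost a call, 78 gained one and 20 turned their direction with a call in at least 1 of the fits. Of the 2616, 216 differed in sign and were called in neither fit, and the cause of these changes was not tested. The counts of members called are given in the order Dmp1KO, Fgf23cKO and Dmp1KO/Fgf23cKO against WT and Dmp1KO/Fgf23cKO against Dmp1KO. In myeloid cells they were 6, 3, 7 and 8, with DESeq2 6, 3, 7 and 9, with no filter on low counts 7, 5, 7 and 7, and in cells thinned to 1300 UMIs 7, 2, 4 and 7. Within cluster 6 alone, a setting chosen after seeing the data like the inclusion of clusters 4 and 10 and the fit of pre-osteoblast-like cells only, they were 3, 3, 6 and 0. In stromal cells the counts were 3, 2, 0 and 1, in thinned cells 1, 1, 1 and 0 (5 members tested), with lineages read from the marker UMIs of each cell 1, 1, 0 and 0, in pre-osteoblast-like cells only 1, 0, 1 and 0, with the untagged samples included 3, 3, 3 and 3, with no filter 3, 3, 4 and 1, with carry-over subtracted 2, 1, 0 and 1, at an adjusted p under 0.05 2, 1, 0 and 1, and with contractile cells alone as stromal 1, 3, 4 and 1. Differences between the lineages were called for 2, 0, 0 and 2 members, in thinned cells for 1, 0, 1 and 0, with contractile cells as stromal and cycling and osteoclast-like cells as myeloid for 0, 2, 4 and 3, with cluster 6 as myeloid for 1, 2, 0 and 0, with the untagged samples for 4, 1, 1 and 4, with no filter for 3, 2, 0 and 3, with RLE size factors for 2, 1, 0 and 2, with the filter on cells for 2, 1, 0 and 2, and with clusters 4 and 10 for 2, 1, 0 and 2.

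Leaving out 1 culture gave 6 to 7, 2 to 4, 6 to 8 and 7 to 9 calls in myeloid cells, 0 to 3, 1 to 3, 0 to 1 and 0 to 1 in stromal cells, and 1 to 4, 0 to 1, 0 and 2 to 3 between the lineages. Where a Dmp1KO culture was left out, the remaining one was assumed to vary like the other groups. The replicate numbers did not pair the samples: the deviations of same-numbered cultures correlated at -0.23 to 0.07 in myeloid and -0.14 to 0.14 in stromal sums. With the number as a replicate block the counts were 6, 3, 7 and 8 in myeloid and 2, 1, 0 and 1 in stromal cells. The fit between lineages already has the culture as a block, so neither the replicate block nor DESeq2 was run for it.

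Values that turned were, within cluster 6 against WT, Fos at 0.21 and Fosb at 0.49 in Dmp1KO, Fos at 0.33 in Fgf23cKO, and Fos at 0.27, Egr2 at -0.087 and Egr3 at -0.75 in Dmp1KO/Fgf23cKO. Against Dmp1KO, Fosl2 was at -0.13, Jund at 0.054, Egr1 at -0.18 and Egr2 at -0.37. With that cluster as myeloid, the lineage difference in Dmp1KO against WT was 1.01 for Fos and 0.0014 for Fosb. In thinned myeloid cells, Egr3 in Dmp1KO against WT was at 0.45. With contractile cells alone as stromal, Jun in Dmp1KO/Fgf23cKO against WT was at -1.64 and Fos against Dmp1KO at -2.81 in stromal cells. The lineage differences were then 2.92 for Fos and 3.61 for Fosb against WT, and 3.54 for Fos, 1.66 for Junb and 0.34 for Jund against Dmp1KO. Cell number and depth limit the stromal results. The sum of Fgf23cKO replicate 2 rests on 40 cells, and the shallowest tagged sum, of WT replicate 2, holds 905849 UMIs of 65 cells. Only 1 reaction per genotype and 2 Dmp1KO cultures were analysed, and the cluster names were rebuilt here.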

Other observations

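Outside the compared lineages, the members' levels over the tagged cells of a cluster also varied. Jun stood at 667 CPM in the 92 tagged cells of the unassigned cluster 18, led by Tenm3, Apod and Xkr4. In the cycling clusters 8 and 11, Fos was at 219 and 159.8 CPM, Jund at 111 and 143 CPM, and Egr1 at 48.3 and 29.7 CPM. In the unassigned cluster 7, whose tagged and untagged cells had a median of 74.9% mitochondrial UMIs, Fos was at 48.8 CPM, Junb at 54.6 CPM and Egr1 at 17.4 CPM. In the clusters 4 and 10 left out of the myeloid class, mostly of Dmp1KO, Egr1 was at 46.4 and 12.6 CPM, Fos at 257 and 253 CPM and Jund at 213 and 196 CPM.

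The untagged myeloid cells, which entered no comparison, had Egr3 at 28.1 CPM in WT, 54.3 CPM in Fgf23cKO, 11.9 CPM in Dmp1KO and 43.05 CPM in Dmp1KO/Fgf23cKO. Their Fosb was at 47.3, 66.3, 20.8 and 107 CPM, and their Jund at 172, 256, 352 and 236 CPM in the same order.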
